A study of Chlamydomonas reinhardtii with 9 samples.

Results

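The comparison of the mutant crskip-1 with wild type rests on 6 of the 9 libraries of a series on the single-celled green alga Chlamydomonas reinhardtii. It takes 3 libraries of crskip-1 and 3 of wild type, and covers all 14621 genes of the deposited tables, 14540 of them nuclear, 73 in the plastome (the chloroplast genome) and 8 in the mitogenome (the mitochondrial genome). Both groups were of strain CC5325. For 2 generations they were kept at 22 °C on a daily cycle of 14 h light to 10 h dark in TAP, a liquid medium that supplies acetate. RNA was taken late in G1, the growth phase before division. The labels name the mutant crskip-1 and do not describe its allele or whether it is a single clone. The third group of the series, crpaf1-1, grew the same way and is used where a change in crskip-1 is set against another mutant.

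SKIP is a conserved nuclear protein that sits in the catalytic core of the spliceosome, the machine that removes introns from transcripts. In Arabidopsis it also acts in transcription and is known to bind the PAF1 complex, which travels with RNA polymerase II. Chlamydomonas genes are rich in introns, so splicing touches most of its nuclear transcripts. Its chloroplast genome encodes core subunits of the photosystems, the ATP synthase, ribosomal proteins and an RNA polymerase, and its small mitochondrial genome encodes respiratory chain subunits. Organelle transcripts are made by other polymerases and mostly lack the stable poly(A) tails by which these libraries were selected.

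The deposited files give gene IDs without names, and of 17742 genes in the RefSeq table of assembly Chlamydomonas_reinhardtii_v5.5, 0 had a name beyond its locus tag. Genes are therefore described by genome, structure, position and level. The lists by function (carbon uptake, photosynthesis, cell cycle, cilia, metabolism, stress) could not be matched by name, so their members, which may be among the genes below, were not counted. Neither SKIP nor any other gene could be used to check a library's label. Levels are given as CPM, counts relative to the library's total, after TMM scaling, which sets libraries to a shared typical gene. A gene is called, or said to rise or fall, where its Benjamini-Hochberg adjusted p in the edgeR quasi-likelihood test was under 0.05, with the adjustment made over 13376 genes. Separate cultures are not stated for the replicates, and the p-values therefore rest on a spread between libraries that may be technical. Wild-type libraries held 14006299 to 16812251 counts and crskip-1 libraries 13907142 to 16122105. Per the file headers, lane 3 held replicate 1 of every group and lane 2 the others.

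Among nuclear genes, changes in crskip-1 were many, mostly small, and lopsided at the large end. Of 13305 tested, 3254 rose and 3305 fell, against 24.4% higher and 25.1% lower over all genes tested. Changes under 2-fold were about even, with 3010 genes higher and 2677 lower. Between 2- and 4-fold, 204 rose and 514 fell, and 40 rose and 114 fell by at least 4-fold. Over all genes tested, 49.5% were called, and 6.89% were called with a change of 2-fold or more, 1.82% higher and 5.06% lower. For 56.4% of all genes the libraries of the groups did not overlap.

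These classes differed in how abundant their genes were in wild type. Genes that rose under 2-fold had a median wild-type level of 33.4 CPM, and those that fell under 2-fold 23.4 CPM. The 40 genes that rose 4-fold or more had a median of 0.222 CPM, so most of them were barely detected in wild type. The 114 that fell 4-fold or more had a median of 4.22 CPM. Wild-type levels also enter the fold change that set these classes, so part of this difference follows from the choice. Of the 40, 27.5% had no counterpart among the v5.5 locus tags, where 6.62% of all tested nuclear genes had none. Genes without such a counterpart were shorter and scarcer than the rest, with a median exonic length of 1670 bases and a median wild-type level of 5.56 CPM, against 3036 bases and 19.9 CPM.

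**Figure D1:**
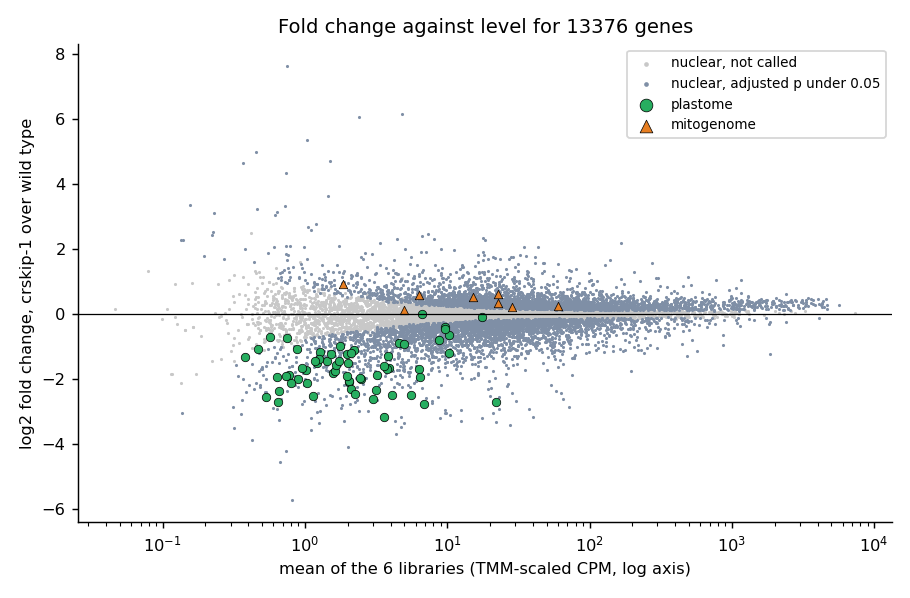
Log2 fold change of crskip-1 over wild type (y axis) against the mean TMM-scaled CPM of the 6 libraries (x axis, log scale), 1 point per tested gene, with organelle genes marked. Plastome genes lie below 0 and mitogenome genes above it, and the highest fold changes belong to nuclear genes of low level.

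The most abundant transcripts were mainly higher in crskip-1. Of the 100 nuclear genes with the highest wild-type levels, from 1399 to 7310 CPM, 85 rose and 7 fell, and the median log2 fold change was 0.28 (SD of 0.23 across genes). The same measure over all nuclear genes was 0.01. In the most abundant quintile, which starts at 60.2 CPM, 40.1% rose and 22.9% fell. Over all genes tested, 24.4% were called higher and 25.1% lower. In the least abundant quintile, 14.1% rose and 20.8% fell, so the share called also varied with level. The 20 most abundant genes, ranked in each library by itself, took 8.71 to 8.93% of the counts in crskip-1 libraries. In wild type they took 7.87 to 8.19%, without overlap. No scaling touches this share, and the 20 genes can differ between libraries. The abundance classes were set from wild-type values, which also enter the contrast. With scaling by library size alone, all genes had a median of -0.12, and 27.6% of the called genes were higher in place of 49.2%. Under it the top 100 still held 71 that rose and 12 that fell, while in the most abundant quintile 613 rose and 1018 fell, so the direction in that quintile holds relative to the typical gene.

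Under the naming criteria (adjusted p under 0.05, at least 5 CPM in the higher group, no overlap), the strongest nuclear rise was that of Cre13.g801584_4532.v6.1, a single-exon gene of 1161 bases (chromosome 13, 5064977 to 5066137, minus strand). It held 1, 2 and 3 counts in the wild-type libraries and 129, 148 and 124 in the crskip-1 libraries. Its wild-type level was 0.128 ± 0.0641 CPM and its crskip-1 level 9.44 ± 0.639 CPM (SD, n = 3 each; log2 6.14, SE 0.26, edgeR adjusted p = 1.46e-11). The wild-type libraries were thus near the floor and every crskip-1 library far above them. In crpaf1-1 it measured 3.23 ± 0.278 CPM, between the other groups, and crskip-1 exceeded crpaf1-1 by log2 1.54 (SE 0.13, edgeR adjusted p = 4.14e-08), a test in which 28.2% of all genes were called higher in crskip-1.

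Cre14.g623250_4532.v6.1, next in the order, is a single-exon gene of 2833 bases (chromosome 14, 2382748 to 2385580, minus strand). It measured 1.85, 2.24 and 2.32 CPM in the wild-type libraries and 11.8, 11.4 and 10.3 CPM in the crskip-1 libraries (log2 2.39, SE 0.15, edgeR adjusted p = 8.07e-10). The groups lay well apart and each was tight. The crpaf1-1 libraries measured 2.77, 2.07 and 2.33 CPM, close to wild type, and crskip-1 was above them by log2 2.22 (SE 0.14, edgeR adjusted p = 6.66e-10).

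The strongest falls under the same criteria were those of a neighbouring pair on chromosome 8, Cre08.g367400_4532.v6.1 (minus strand, 1874560 to 1876960) and Cre08.g367500_4532.v6.1 (plus strand, 1886059 to 1888346). Both have 4 exon blocks, they stand 9098 bases apart, and 0 other listed genes lie between them. The first measured 10.1, 2.10 and 12.3 CPM in wild type, and crskip-1 had 1.08, 0.267 and 0.549 CPM (log2 -3.70, SE 0.63, edgeR adjusted p = 0.000108). The second measured 11.6, 2.17 and 12.3 CPM in wild type, and crskip-1 had 1.01, 0.535 and 0.862 CPM (log2 -3.46, SE 0.61, edgeR adjusted p = 0.000137).

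The pair moved alike from library to library, and wild-type replicate 2 was the low one for both. The groups did not overlap, but the spread within wild type was several-fold. In crpaf1-1 they measured 2.01 ± 1.56 and 3.25 ± 2.23 CPM (SD, n = 3). Against crpaf1-1 the first gene's difference did not pass (log2 -1.70, SE 0.78, edgeR adjusted p = 0.0778) and the second's did (log2 -2.05, SE 0.70, edgeR adjusted p = 0.0195). The first overlaps 1 gene on the opposite strand, and strand use in counting is not given, so its counts are uncertain. Reads that the pair might share would have been lost to unique mapping, and their likeness in sequence was not examined.

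The low value of wild-type replicate 2 led to a wider group, chosen after the values were seen. Of 11009 nuclear genes with a wild-type mean of at least 5 CPM, 11 had a level in that library under 0.5 times that of the lower of the other wild-type libraries. Replicates 1 and 3 were low in this way for 1 and 3 genes. Of the 11, 10 fell in crskip-1, with log2 fold changes from -3.70 to -1.29 and a median of -3.23, and for all 10 the groups did not overlap. Wild-type values took part in the choice, so the count is a description. Over all genes tested, 25.1% were called lower, and 28.5% were lower without overlap. Of the 10 lowest genes under the naming criteria, 5 were in this group.

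The low value of wild-type replicate 2 was fixed by the choice; the values of the mutants were not part of it. Among the 10 that fell, wild-type replicate 1 was the highest wild-type library for 8 and replicate 3 for 2. In crskip-1, replicate 1 was the highest for 9, and in crpaf1-1 replicate 1 was the highest for all 10. One of the 10, on chromosome 2 at 3311436 to 3326751, was flat in crskip-1, at 17.4, 16.9 and 17.8 CPM. The gene that did not pass, on chromosome 4 at 2987992 to 2992624, had replicate 1 lowest in both mutants, at 0.608, 9.56 and 7.99 CPM in crskip-1 and 1.45, 6.57 and 2.33 CPM in crpaf1-1. Replicate 1 is also the lane 3 library of each group, and the part of the lane in this was not tested. In lane 2 alone the median log2 fold change of the 11 was -3.43, against -3.17 with all libraries, and 10 fell.

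A second adjacent pair belonged to this group, on chromosome 5 at 1145353 to 1148004 and 1149843 to 1152203, 1838 bases apart. The first of them measured 139, 44.8 and 107 CPM in wild type, and crskip-1 had 26.1, 14.5 and 15.2 CPM. The second measured 125, 38.9 and 102 CPM in wild type, and crskip-1 had 25.9, 15.2 and 16.9 CPM. All crskip-1 values were below the lowest wild-type one. Another member, on chromosome 6 at 8483968 to 8487060, went from 108, 30.7 and 76.2 CPM to 15.5, 3.14 and 5.17 CPM. Of the 10 genes, 8 were also lower in crpaf1-1 than in wild type, where 29.8% of all genes were; both comparisons use the same wild-type libraries. Between the mutants, 7 were lower in crskip-1, where 25.7% of all genes were lower in crskip-1 than in crpaf1-1.

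**Figure D2:**
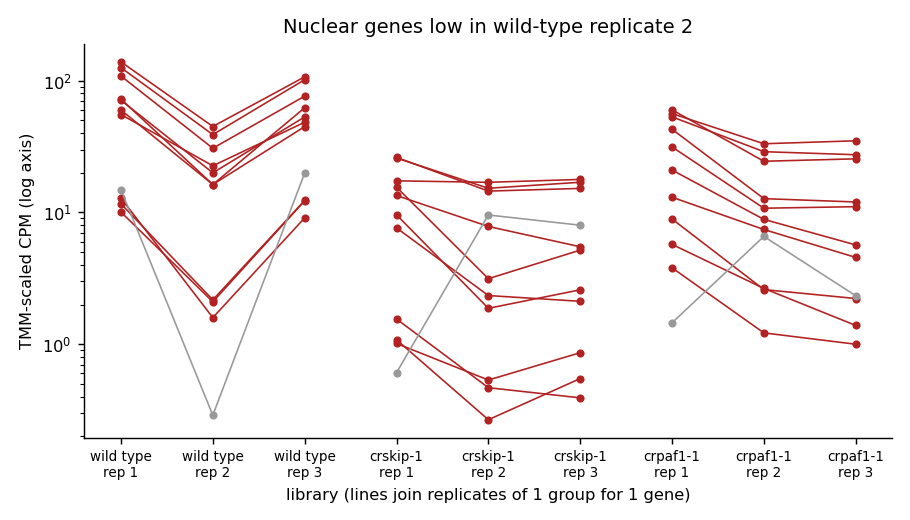
TMM-scaled CPM (y axis, log scale) in each of the 9 libraries (x axis) for the 11 nuclear genes low in wild-type replicate 2; each line joins the replicates of 1 group for 1 gene, red for the 10 that fell in crskip-1 and grey for the other. Red lines dip at wild-type replicate 2, lie lower in crskip-1, and stand highest at replicate 1 in crpaf1-1.

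A few genes were near absent in one group. Those with at most 3 counts summed over 3 libraries of one group and at least 10 in each library of the other numbered 4 in the direction of crskip-1 and 2 in the direction of wild type (limits chosen after the counts were seen). One has 7 exon blocks and lies on chromosome 2, plus strand, between 915881 and 920243. It had 0 counts in every wild-type library and 20, 27 and 17 in crskip-1, at least 23.8-fold higher against a floor of 3 counts over the wild-type group. In crpaf1-1 it held 65, 55 and 53 counts. It overlaps 1 gene on the opposite strand and is uncertain for that reason.

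The second lies on chromosome 13, minus strand, between 4342505 and 4346392. It held 2, 0 and 1 counts in wild type and 64, 67 and 70 in crskip-1, a ratio of 74.9 (exact 95% counting interval 25.3 to 366). In crpaf1-1 it held 0, 0 and 2 counts, and crskip-1 was higher than crpaf1-1 by log2 6.82 (SE 0.45, edgeR adjusted p = 1.61e-09). It was therefore detected at more than 3 counts per library in crskip-1 only, among these 9 libraries. The remaining 2 lie on chromosome 15 at 2449423 to 2452135 and on chromosome 17 at 2553780 to 2555810, and have a single exon block each. They went from 3 to 60 and from 2 to 87 summed counts, and crpaf1-1 held 12, 9 and 7 counts of the first and 37, 50 and 26 of the second. The chromosome 17 gene also overlaps 1 gene on the opposite strand and is uncertain.

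In the other direction, a gene of 2 exon blocks on chromosome 6 at 2789337 to 2790362 went from 32, 18 and 11 counts in wild type to 0, 0 and 2 in crskip-1. The other, of 4 exon blocks on chromosome 17 at 6358651 to 6361700, went from 16, 12 and 10 counts to 1, 0 and 1. Their ratios were 27.3 (exact 95% counting interval 7.24 to 230) and 17.0 (4.39 to 145). Both were also low in crpaf1-1, at 1, 2 and 3 counts and 4, 3 and 1 counts. Such intervals cover counting error only.

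Plastome transcripts fell in crskip-1 with few exceptions, to very different degrees. Of 63 tested genes, 54 fell and 0 rose, against 25.1% lower over all genes tested. Of the 54, 49 fell by 2-fold or more and 17 by 4-fold or more. Of the 63, 22 had a wild-type mean below 2 CPM, and some of the deep falls were among these scarce genes. For 52 genes every crskip-1 library lay below every wild-type library, where 28.5% of all genes did so. The log2 fold changes ran from -3.18 to -0.01, with an SD over genes of 0.68.

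The most abundant plastome gene in wild type, at 63620 to 65618 on the minus strand, went from 46.6, 45.8 and 22.1 CPM in wild type to 4.12, 5.95 and 7.52 CPM in crskip-1 (log2 -2.71, SE 0.31). Its neighbour at 62321 to 63619 went from 15.9, 14.0 and 6.28 to 1.35, 1.94 and 2.04 CPM (log2 -2.76, SE 0.32). The deepest fall was at 202330 to 205032, from 7.80, 7.23 and 4.45 to 0.675, 0.468 and 1.02 CPM (log2 -3.18, SE 0.39). In each of these, wild-type replicate 3 was the lowest wild-type library and still lay above all crskip-1 libraries.

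The abundant plastome genes spread over nearly this whole range. Of 9 with at least 10 CPM in wild type, 6 fell. The second most abundant, at 186350 to 188329, measured 22.0, 18.9 and 14.1 CPM in wild type, and crskip-1 had 19.0, 17.8 and 14.3 CPM. The groups overlapped, and its difference did not pass (log2 -0.10, SE 0.17, edgeR adjusted p = 0.661). Those at 78955 to 80892 and 121642 to 123226 had log2 values of -0.41 (SE 0.23) and -0.47 (SE 0.21) and did not pass either. Those at 68480 and 118443 fell by 0.65 and 0.80 on the log2 scale (SE 0.17 and 0.20), and that at 174253 fell by 1.93 (SE 0.28). The third most abundant gene, at 123601 to 125796, went from 16.5, 15.2 and 11.2 CPM to 6.69, 5.95 and 6.11 CPM (log2 -1.19, SE 0.22, edgeR adjusted p = 0.00021). The plastome thus did not shift by 1 common factor, since the genes at 62321 and 186350 lay over 2 log2 units apart, with standard errors of 0.32 and 0.17.

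The wild-type libraries themselves differed in plastome level. Replicate 3 was the lowest wild-type library for 61 of the 63 genes, and the summed plastome level, in CPM of the library total without TMM, was 392, 345 and 209 in wild type and 119, 108 and 111 in crskip-1. The exact two-sided permutation p was 0.1, the smallest that 3 against 3 libraries allow. Without wild type replicate 3, 59 of 65 tested genes fell, and without wild type replicate 2, 49 of 65. Against crpaf1-1, whose summed plastome level was 341, 208 and 443 CPM, crskip-1 was lower for 52 genes and higher for 0, where 25.7% of all genes were lower. In crpaf1-1 against wild type, 6 plastome genes were lower and 3 higher, where 29.8% of all genes were lower. The genes at 63620 and 62321 were among these 6, at log2 -0.77 and -0.97. In lane 2 alone 39 of 61 tested genes fell, with a median of -1.43 against -1.69 with all libraries. Fewer plastome transcripts per cell, and fewer of them with a tail that oligo(dT) beads can hold, cannot be told apart in these libraries.

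**Figure D3:**
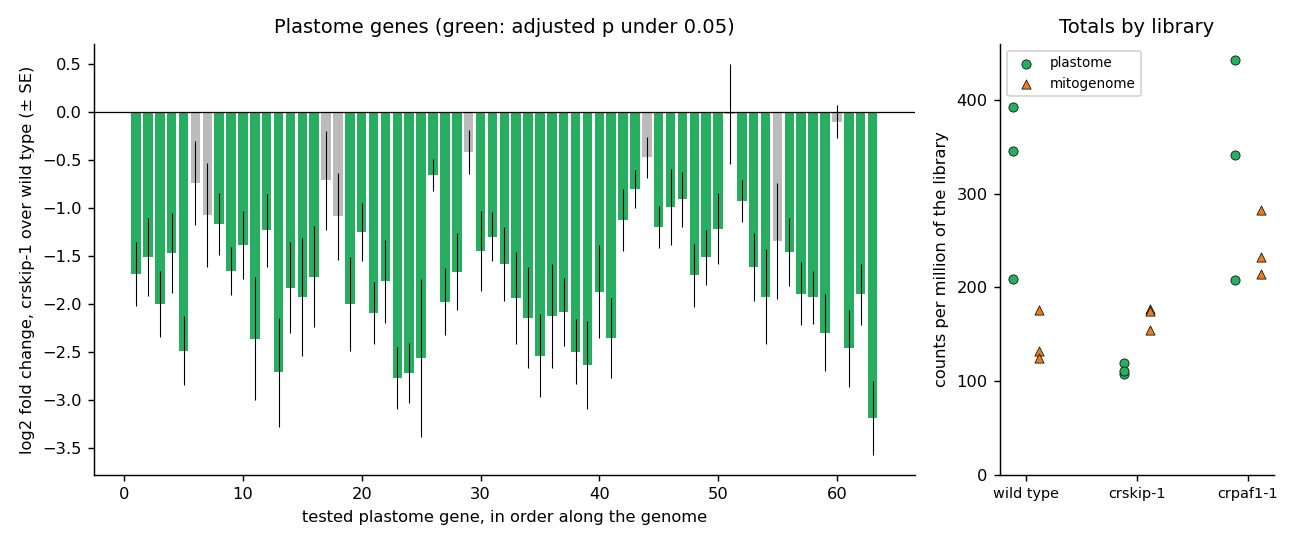
Left, log2 fold change of crskip-1 over wild type with its SE for the 63 tested plastome genes in order along the genome, green where the adjusted p was under 0.05; right, plastome and mitogenome totals in CPM in each library of the 3 groups. The bars run from -3.18 to -0.01, and plastome totals of crskip-1 sit at 108 to 119, below all wild-type and crpaf1-1 libraries.

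Mitogenome transcripts differed from the plastome in direction and size. Of 8 genes, 5 rose in crskip-1 and 0 fell, against 24.4% higher over all genes tested, and none reached 2-fold among those that passed. The clearest were neighbours on the minus strand. The gene at 1691 to 3044 measured 14.0, 11.6 and 11.5 CPM in wild type, and crskip-1 had 16.9, 18.6 and 17.9 CPM (log2 0.52, SE 0.11, edgeR adjusted p = 0.000901). The gene at 3045 to 4960 measured 20.8, 16.4 and 16.2 CPM in wild type, and crskip-1 had 29.2, 28.9 and 24.3 CPM (log2 0.62, SE 0.13, edgeR adjusted p = 0.000609). Of the 8 genes, only these 2 had groups that did not overlap, where 28.0% of all genes were higher without overlap.

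The third gene of that strand, at 518 to 1690, measured 32.3, 24.2 and 22.7 CPM in wild type, and crskip-1 had 32.6, 31.7 and 27.4 CPM, with overlapping groups, and did not pass (log2 0.21, SE 0.12). It was the one mitogenome gene that differed between the mutants, at 30.6 CPM in crskip-1 and 60.4 CPM in crpaf1-1 (log2 -0.98, edgeR adjusted p = 1.01e-06). On the plus strand, the most abundant mitogenome gene, at 5042 to 6691, rose from a mean of 54.8 to 65.6 CPM (log2 0.26, SE 0.10, edgeR adjusted p = 0.0495). The genes at 6692 to 7952 and 10353 to 11251 also rose, by log2 0.34 and 0.57. The count of 5 became 2 with library size alone and was also 2 where replicate 2 or 3 of wild type, or replicate 1 of crskip-1, was left out. It was 3 without crskip-1 replicate 2. Summed mitogenome levels, in CPM of the library total without TMM, were 176, 132 and 124 in wild type against 177, 175 and 154 in crskip-1. These totals had means of 144 and 169 CPM and overlapped (exact two-sided permutation p = 0.3, n = 3 each). With TMM-scaled library sizes, as used for the single genes, the sum was higher in crskip-1 by log2 0.35 (exact two-sided permutation p = 0.2). The sum thus lay higher in crskip-1, within the spread of the libraries. Set against the same wild-type libraries, all 8 passed as higher in crpaf1-1, at a median log2 of 0.73. The corresponding crskip-1 value was smaller, at 0.43.

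Gene structure was set beside the changes because SKIP acts in splicing, and only nuclear genes were taken. Long transcripts fell more often and short ones rose more often. In the longest quintile by exonic length (4792 bases and over), 14.0% of genes rose and 34.9% fell. In the shortest quintile (186 to 1837 bases) 29.3% rose and 17.7% fell. Over all nuclear genes tested, 24.5% rose and 24.8% fell. The medians of log2 fold change were -0.11 and 0.07, against 0.01 over all nuclear genes and an SD over genes of 0.56.

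The share of a gene's span that is intron showed the opposite slope. In the intron-poorest quintile, where introns make up at most 18.0% of the span, 19.8% of genes rose and 30.0% fell, with a median log2 fold change of -0.06. In the intron-richest quintile, from 52.6%, 30.6% rose and 16.8% fell, with a median of 0.07. Falls of 2-fold or more made up 7.33% of the intron-poorest quintile and 2.37% of the richest, against 4.72% of all nuclear genes. These quintiles also differed in level, with median wild-type levels of 11.9 and 26.1 CPM. Among genes of the lowest level quintile such falls made up 10.6% of the intron-poorest and 8.38% of the intron-richest. In the highest level quintile they made up 3.41% and 0.295%.

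Length and intron share are linked, as are level and both, so each was read within classes of the others. Within every quintile of length, the median was higher in the intron-richest than in the intron-poorest genes, by 0.03 in the shortest quintile and by 0.10 to 0.15 in the others. Within every quintile of intron share, the longest genes had the lower median, by 0.11 to 0.21. Within the quintiles of wild-type level, the intron-richest genes were higher by 0.06 to 0.16 and the longest lower by 0.14 to 0.20. The smallest class in these grids held 269 genes.

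**Figure D4:**
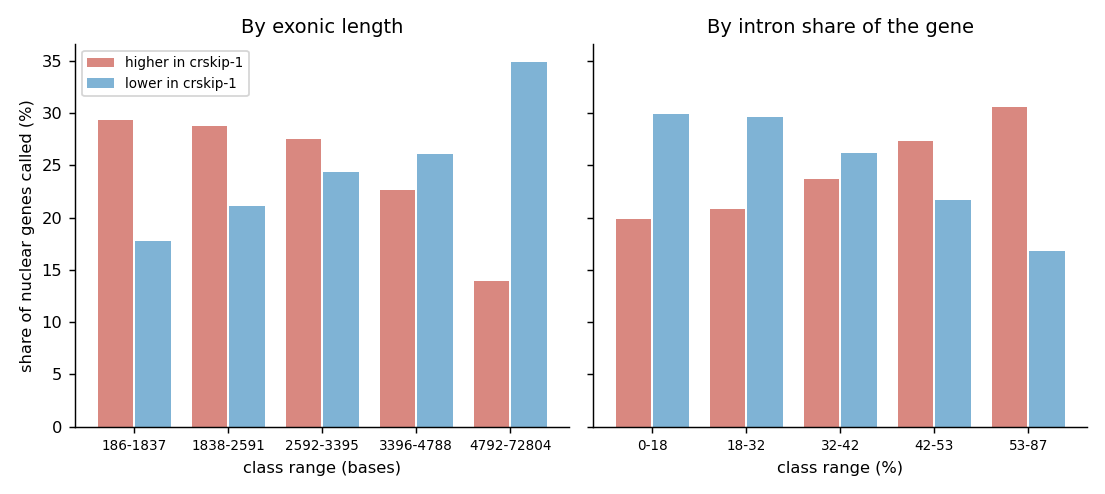
Share of nuclear genes called higher or lower in crskip-1 (y axis, %) in quintiles of exonic length (left) and in quintiles of the intron share of the gene's span (right). With length, the share that rose drops from 29.3 to 14.0% and the share that fell climbs from 17.7 to 34.9%; with intron share the slopes turn round.

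By number of exons, 607 nuclear genes had a single block, of which 22.4% rose and 21.6% fell, with a median log2 fold change of 0.04. All nuclear genes had 24.5% higher and 24.8% lower. With the plastome left out, these single-block genes did not lean to lower values. Of 989 genes with over 20 exon blocks, 16.4% rose and 33.7% fell, with a median of -0.08, and their median exonic length was 6314 bases against 1435 for single-block genes.

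The slopes were also read in each library, as the difference of class medians of log2(CPM + 0.5) taken relative to the 6-library mean. For length, the longest minus the shortest quintile gave 0.05, 0.08 and 0.13 in wild type and -0.10, -0.11 and -0.06 in crskip-1. For intron share, the richest minus the poorest quintile gave -0.11, -0.04 and -0.04 in wild type and 0.06, 0.04 and 0.08 in crskip-1. Centring on these 6 libraries puts the groups on opposite sides of 0, so the gap between them, not the sign, is what was read. The groups did not overlap in either measure (exact two-sided permutation p = 0.1 each, the smallest possible with n = 3). For exon number, over 20 blocks minus 1 block gave -0.04, 0.08 and 0.12 in wild type and -0.06, -0.08 and -0.02 in crskip-1 (exact permutation p = 0.2). There wild-type replicate 1 lay among the crskip-1 libraries.

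The length slope in crpaf1-1 libraries was -0.07, -0.06 and -0.01 and overlapped with crskip-1 (exact permutation p = 0.3, n = 3). The intron slope was -0.05, 0.01 and -0.00 in crpaf1-1, below all crskip-1 libraries (exact permutation p = 0.1, n = 3). The files hold no measure of RNA integrity, so the part of RNA quality in the length slope was not tested. Bowtie2 does not split reads over introns, and the part of this in the slopes was not tested. The tables hold no counts of intronic reads, so retained introns were not measured.

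**Figure D5:**
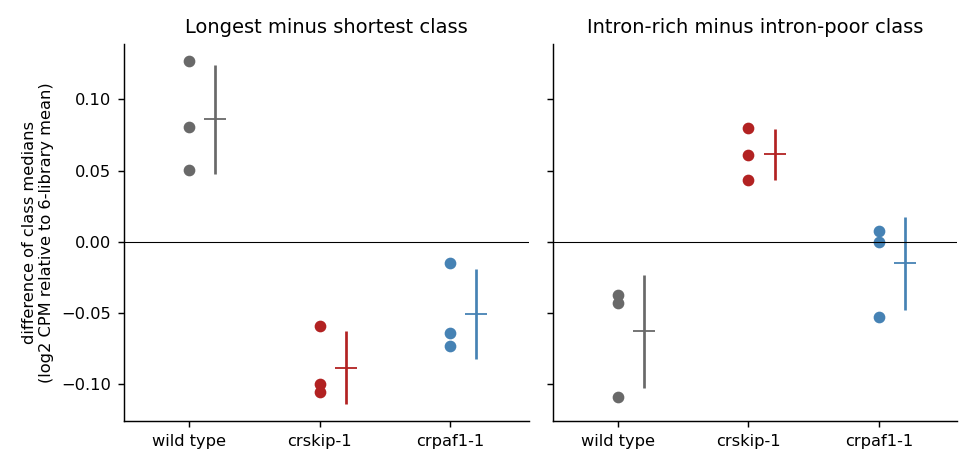
Difference of class medians of log2(CPM + 0.5), relative to the 6-library mean (y axis), in each library of the 3 groups; left, longest minus shortest quintile of exonic length, right, intron-richest minus intron-poorest quintile, with the mean ± SD (n = 3) beside the points. Wild type and crskip-1 do not overlap in either panel. Their opposite sides of 0 follow from centring on these 6 libraries.

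Between the mutants themselves, 53.8% of all genes were called, 28.2% higher and 25.7% lower in crskip-1. At 2-fold or more, 6.97% were called, 2.98% higher and 3.98% lower in crskip-1. Of the 63 tested plastome genes, 52 were thus among the many that separated crskip-1 from crpaf1-1 in a direct test. The chromosome 13 gene at 4342505 was another, while 1 of 8 mitogenome genes did so.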

How the data were processed

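The authors deposited, per the file headers, raw counts per gene for each library, made from uniquely mapped alignments with duplicates removed. Bowtie2 and featureCounts are named, per the submitters' processing notes, without versions or a strand setting. Duplicate removal lowers abundant genes most. The deposited gene IDs are of annotation v6.1, and coordinates are as deposited. The labels' protocols describe oligo(dT) selection, although the field for the molecule says genomic DNA; values were taken as expression. Counts in columns of other samples numbered 0.

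From these counts, edgeR 4.0.16 (R 4.3.3) gave quasi-likelihood tests in 1 fit of all 9 libraries, with no covariates, TMM scaling and genes kept by filterByExpr. The filter left out 1245 genes, holding 0.0161% of the counts. The SE was taken from the fold change and the F statistic. Classes by length, level and intron share are quintiles of the 13305 tested nuclear genes. Exon blocks are merged exons. Chi-square per degree of freedom between replicates was 2.78 to 4.21, above counting noise. The fit was tested on simulated data. Genes were named by this rule: nuclear, adjusted p under 0.05, at least 5 CPM in the higher group, no overlap between groups, then the 2 highest and the 2 lowest fold changes. The members, lists and classes were chosen with earlier results of these data known. DESeq2 1.42.0 was an alternative. No list of gene functions could be matched, so those counts were not run.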

Additional observations from a re-analysis of the deposited data

How the results depend on the processing

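Of 185 recomputed values, 180 kept their direction and their side of the threshold or stayed within the limits set for counts, and all 56 of the named genes did. The exception was the number of mitogenome genes that rose, 5 in the report, which was 2 with library size alone and 2 to 7 when 1 library was left out. The cause was not tested. The limits for the number of genes called took no account of direction, which did depend on scaling. With library size alone 1863 genes rose and 4879 fell, in place of 3259 and 3359. Genes called numbered 5686 with DESeq2, 6317 with only the 6 libraries compared, and 5660 in lane 2 alone. The plastome count was 39 in lane 2 alone and 49 to 59 when 1 library was left out. The length difference between the outer quintiles stayed at -0.19 to -0.15, the intron difference at 0.10 to 0.15, and the exon number difference at -0.15 to -0.08. Replicate 1 of every group shares lane 3, and replicates 2 and 3 share lane 2. The main fit took account of neither lane nor replicate number. Pairing by number was left out because the deviations of same-numbered wild-type and crskip-1 libraries correlated at 0.18, -0.04 and 0.21, not all over 0.1. With the replicate block, 7004 genes were called in place of 6618, 54 plastome genes fell and 7 mitogenome genes rose. The intron share classes were chosen after seeing the data. The alternatives planned for lists of named genes were not run, since no list could be matched. Genes under 1 CPM rest on few counts, and their fold changes are uncertain.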

Other observations

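Neighbouring nuclear genes were looked at for shared direction, without a test. Of 3355 pairs of adjacent tested genes that were both called, 55.9% had the same direction, while 49.6% of called nuclear genes were higher. Runs of at least 7 adjacent tested genes called in 1 direction numbered 5. The deepest lay on chromosome 17 at 4340049 to 4398831, where 7 genes fell with log2 values from -2.91 to -0.40 and a median of -1.24. In crpaf1-1 their median against wild type was -0.21. Another run of 7, on chromosome 8 at 3786690 to 3817462, fell with a median of -0.94 and a median of -0.02 in crpaf1-1. The longest was a run of 8 on chromosome 6 at 5053269 to 5093878 that rose with a median of 0.34. Medians of whole chromosomes stayed between -0.02 and 0.06. Chromosome 15 had the fewest falls for its size, at 16.7% of 281 genes against 25.1% over all genes tested. Its genes were also scarcer, with a median wild-type level of 12.3 CPM against 18.7 CPM over all nuclear genes. Of them, 25.3% had no v5.5 counterpart, against 6.62% of all tested nuclear genes.

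The tables also list 14 genes on a scaffold named mating_type_plus. Of these, 8 had no count in any of the 9 libraries, and the most in any gene and library was 5 counts, so the libraries of all 3 groups were alike in this.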
